A study of Homo sapiens with 20 samples.

Results

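The comparison described here is that of phenylpyruvic acid (PP) with its solvent DMSO in the established glioblastoma line U-87MG, of human origin. It was defined as the 5 arrays titled PP against the 5 arrays titled DMSO, paired by replicate number, which makes 10 of the 20 arrays of the series. The PP cells received 40 µM of the compound for 24 h, and the DMSO cells received solvent alone, at no more than 0.2% of the medium. The labels of both groups name U-87MG alone, with no vector, both grew in medium that contained serum and sodium pyruvate, and all results come from a single cell line. The other 10 arrays hold the same cells with indole-3-pyruvic acid (I3P) or hydroxyphenylpyruvic acid (HPP) at the same dose and time. The question of the series is whether these keto acids activate the aryl hydrocarbon receptor (AHR). Bulk RNA was measured, so a change in the mix of cells and a change in RNA per cell cannot be told apart.

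PP is the keto acid of phenylalanine. Cells make it by transamination, and it builds up in phenylketonuria, in which phenylalanine cannot be hydroxylated to tyrosine. It is also the substrate by which the tautomerase activity of the cytokine MIF is assayed, and in rat brain preparations it interferes with the use of pyruvate by mitochondria. AHR is a ligand-activated transcription factor that enters the nucleus, pairs with ARNT and binds DNA at the core motif GCGTG. Its target genes include enzymes that oxidise foreign compounds and genes such as TIPARP and AHRR, whose products restrain the receptor itself.

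TIPARP, STC2 and AHRR, target genes that differed between I3P and PP, hold the motif before their starts and are printed because the values below turn on them. The 250 bases upstream of each start are given 5′ to 3′ on the gene's own strand (RefSeq, GRCh38.p14), with GCGTG or its reverse complement CACGC in capitals. TIPARP lies at chr3:156674340-156674589 on the plus strand, STC2 at chr5:173328415-173328664 on the minus strand and AHRR at chr5:321464-321713 on the plus strand.
TIPARP: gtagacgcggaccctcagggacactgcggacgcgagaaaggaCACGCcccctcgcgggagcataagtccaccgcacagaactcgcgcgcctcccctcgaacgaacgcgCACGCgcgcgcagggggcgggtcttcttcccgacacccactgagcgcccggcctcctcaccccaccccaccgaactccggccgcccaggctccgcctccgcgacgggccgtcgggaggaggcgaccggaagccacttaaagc
STC2: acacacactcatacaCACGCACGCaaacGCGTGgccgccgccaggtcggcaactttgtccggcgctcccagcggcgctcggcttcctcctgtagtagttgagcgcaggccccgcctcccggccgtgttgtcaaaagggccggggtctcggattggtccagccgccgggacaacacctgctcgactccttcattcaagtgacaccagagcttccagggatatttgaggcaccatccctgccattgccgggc
AHRR: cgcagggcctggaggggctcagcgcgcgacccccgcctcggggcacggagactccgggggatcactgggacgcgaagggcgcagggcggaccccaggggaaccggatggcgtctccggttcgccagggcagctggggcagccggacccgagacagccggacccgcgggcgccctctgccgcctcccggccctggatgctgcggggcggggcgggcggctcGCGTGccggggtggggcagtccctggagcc
The window held 2 matches for TIPARP, 3 for STC2 (of which a pair overlaps by 1 base) and 1 for AHRR. Of the 12 AHR target genes measured, 10 had an upstream sequence in the table and 6 of these held a match, against 45.3% of the 9193 tested genes with a sequence. EREG, which also differed between I3P and PP, held 1 match, and SERPINB2, which differed too, held 0. Among targets that did not pass, NFE2L2 and SLC7A5 held 1 each, and ABCG2, CYP1A2 and NQO1 held 0. A match describes these letters and does not show that AHR binds there.

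No gene passed the test with PP. For each of 11282 genes the log2 difference PP minus DMSO was tested with limma on all 20 arrays, with the replicate number as a block and Benjamini-Hochberg adjustment, at an adjusted p of 0.05. The count of called genes was 0 higher and 0 lower (0% of the genes), and the smallest adjusted p was 0.9996. Before adjustment 479 genes (4.25%) had p under 0.05, 241 higher and 238 lower with PP, where 564 are expected by chance. Without the block 0 genes passed as well, and 174 had an unadjusted p under 0.05. In the same blocked fit, with the same standard errors, I3P gave 68 calls against DMSO (0.603%, or 0.0798% without the block) and HPP gave 5 (0.0443%, or 0% without it). All 3 comparisons use the same DMSO arrays.

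**Figure D1:**
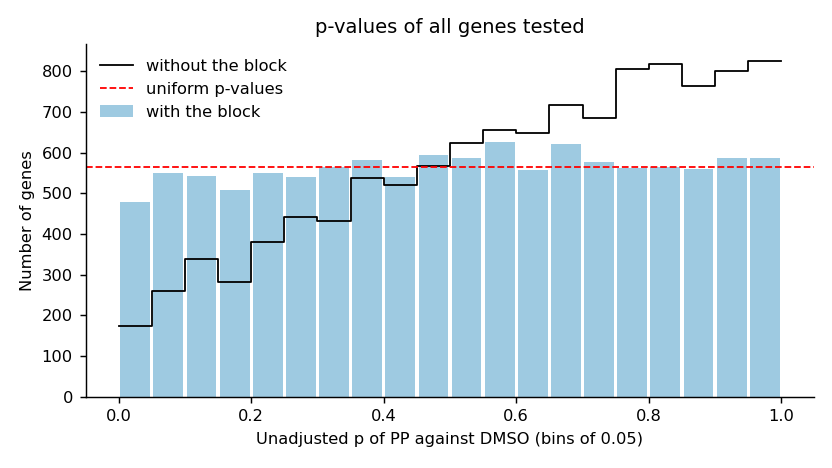
Number of genes in each bin of 0.05 of the unadjusted p of PP against DMSO, with the replicate block (bars) and without it (black line); the dashed line is the count per bin if all p-values were uniform. The first bin holds 479 genes with the block and 174 without it, both below the 564 expected.

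Differences of 1.5-fold or more were excluded for nearly all genes. A gene was counted as within a bound when a pair of one-sided limma tests, against the bound above and below 0, passed after adjustment over all genes. Within 1.5-fold lay 11121 genes (98.6%), and within a narrower bound, a log2 difference of 0.32 or a rise of 25%, lay 9510 (84.3%). Within 2-fold lay 11278 genes (100% when rounded, with 4 genes outside). Without the block these counts were 10854 (96.2%) for 1.5-fold and 7451 (66.0%) for the narrower bound. These bounds hold on the scale of the arrays' robust multi-array average (RMA), which can understate true changes, most of all for dim genes.

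Gene by gene, the 95% interval of the median gene allowed a change of at most 1.17-fold in either direction. For 95% of genes the largest allowed change was 1.41-fold or less, and for 99% it was 1.62-fold or less. When intervals were widened to cover all genes at once (Bonferroni), 10170 genes (90.1%) still lay within 2-fold and 48.8% within 1.5-fold. A gene with the median standard error of 0.0789 would have passed the test alone from a log2 difference of 0.53, or 1.44-fold. Dim genes were bounded less tightly. Within the bound of 0.32 lay 64.2% of the 25% of genes with the lowest mean level and 96.6% of the 25% with the highest.

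**Figure D2:**
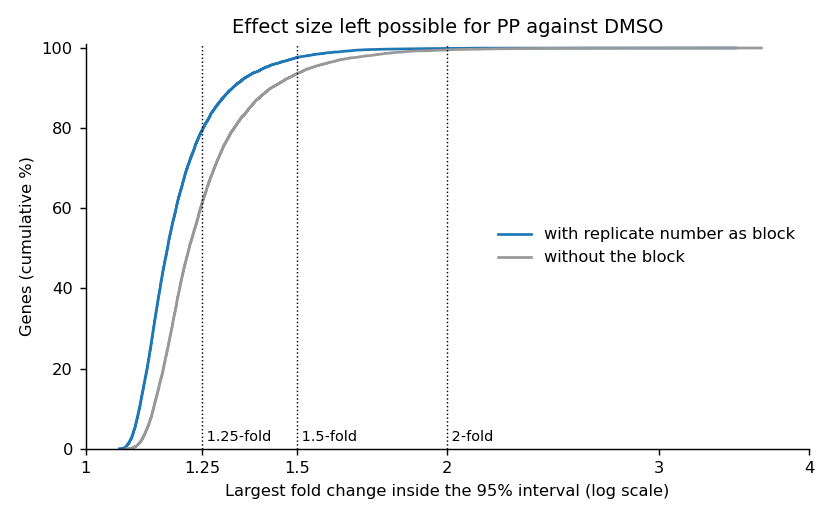
Cumulative percentage of genes (vertical axis) by the largest fold change that lies inside each gene's 95% interval for PP against DMSO (horizontal axis, log scale), with the replicate block (blue) and without it (grey). The median gene is at 1.17-fold with the block and 1.22-fold without it.

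By the adjusted bound test 4 genes could not be placed within 2-fold, and by the 95% interval of each gene alone 13 could not. ANKDD1B, an ankyrin repeat gene, had the largest estimate, a log2 difference of 0.87 (95% interval -0.05 to 1.80). Its PP arrays 1 to 5 read 8.46, 8.79, 9.34, 8.00 and 8.93 in log2, and its DMSO arrays read 6.02, 8.69, 7.93, 8.96 and 7.54. The groups overlap, and the low DMSO replicate 1 carries much of the difference. SLC26A3, an intestinal chloride-bicarbonate exchanger, was at 0.69 (0.16 to 1.21), and its DMSO replicate 4 read 6.80 where the other DMSO arrays read 7.97 to 8.46. Its PP replicate 5 read 9.48. The pairs 1 to 5 were at -0.04, 0.44, -0.17, 1.70 and 1.51, with 3 of 5 higher. Without replicate number 4 its difference was 0.43, and that of ANKDD1B was 0.44 without DMSO replicate 1. KLC3, a kinesin light chain, was at -0.59 (-1.34 to 0.17). Its PP replicate 5 read 6.60 where the other PP arrays read 8.37 or more, and without that array the difference was -0.03. PREX2, an exchange factor for the GTPase Rac, was at -0.10 (-1.49 to 1.29). Its 5 pairs ran from -0.39 to 0.15, a narrow range (SD 0.24), while its standard error of 0.66 comes from the spread over all 20 arrays. The wide interval of PREX2 therefore reflects more than its PP and DMSO arrays. Against the same DMSO arrays PREX2 was at 1.17 with I3P and -0.08 with HPP. The part of each group in the error was not tested. The value for PREX2 was 0.25 without PP replicate 3 and -0.52 without DMSO replicate 3. Its pair 3 differed by 0.11 only, and both of these fits keep the I3P and HPP arrays of number 3. The shifts therefore cannot be assigned to the array left out.

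The AHR target genes measured lay close to the DMSO level with PP. Of 14 listed, 12 had a value, and the cytochrome P450 gene CYP1A1 is not among the 12. Of the 12 measured members of the list, 0 rose, 0 fell, 5 were above DMSO and 7 below, and the median log2 difference was -0.02, against -0.005 over all genes. All 12 lay within 1.5-fold and 10 within 0.32. The largest change that any member's 95% interval allowed was 1.34-fold. In the 5 same-number pairs the median of the list lay between -0.06 and 0.12, above 0 in 3 pairs.

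TIPARP, an ADP-ribosyltransferase that AHR induces and that restrains it, read 10.04, 9.85, 10.34, 10.03 and 9.57 in PP arrays 1 to 5. Its DMSO arrays read 10.10, 9.87, 10.30, 10.00 and 9.89. The groups overlap, with PP replicates 2 and 5 below every DMSO array and PP replicate 3 above every one, and the means were 9.97 ± 0.28 and 10.03 ± 0.17 (SD, n = 5). The fold was 0.956 (95% interval 0.844 to 1.08). CYP1B1, a cytochrome P450 enzyme, read 10.58, 10.30, 10.93, 10.61 and 10.39 with PP and 10.73, 10.36, 10.97, 10.62 and 10.42 with DMSO. Each PP array lay slightly below its DMSO partner, by 0.06 on average, and both groups are highest in replicate 3 and lowest in replicate 2. The interval allowed a fold of 0.849 to 1.09.

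STC2, a secreted glycoprotein, read 10.40, 10.48, 9.97, 10.25 and 10.32 with PP and 10.45, 10.37, 9.99, 10.35 and 10.45 with DMSO. Replicate 3 was the lowest in both groups. AHRR, the repressor that competes with AHR for ARNT, read 8.66, 8.35, 9.35, 8.61 and 8.59 with PP and 8.55, 8.46, 8.85, 8.56 and 8.59 with DMSO. Its log2 difference was 0.11 (-0.07 to 0.29), and the gap in replicate 3 was wider than in the other pairs. SERPINB2, an inhibitor of urokinase, was higher with PP in 5 of 5 pairs, yet by 0.16 only (-0.08 to 0.40, adjusted p = 0.9996 by limma). Its PP arrays spanned 8.80 to 10.75 and its DMSO arrays 8.68 to 10.46, so the replicates of each group differed far more than the groups.

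The other members held differences between -0.05 and 0.04. These were the quinone reductase NQO1 at 0.006 (-0.14 to 0.15), the growth factor EREG at 0.01 (-0.17 to 0.20) and the efflux transporter ABCG2 at -0.01 (-0.22 to 0.20). The amino acid transporter SLC7A5 was at 0.04 (-0.13 to 0.20) and the transcription factor NFE2L2 at -0.04 (-0.18 to 0.10). The least tightly bounded were ALDH3A1, an aldehyde dehydrogenase, at -0.05 (-0.42 to 0.31) and CYP1A2 at -0.03 (-0.33 to 0.27). The receptor gene AHR itself was at 0.008 (-0.09 to 0.11) and ARNT at 0.001 (-0.17 to 0.17). Of the 9 measured genes of the AHR complex, 0 passed, 6 were above DMSO, and 9 lay within 1.5-fold.

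**Figure D3:**
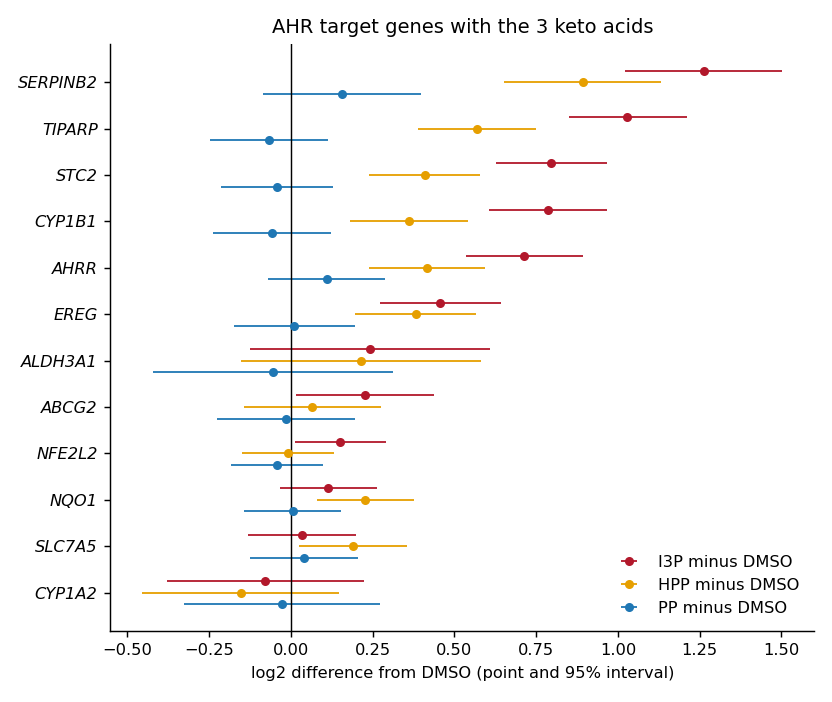
log2 difference from DMSO (horizontal axis, point with 95% interval) of the 12 measured AHR target genes with I3P (red), HPP (orange) and PP (blue), each from 5 arrays against the same 5 DMSO arrays, in order of the I3P value. Every PP interval holds 0 and none reaches beyond 0.40 above or 0.42 below it.

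Set against the related compounds directly, PP gave lower levels of several AHR target genes. PP carries a phenyl ring, HPP the same ring with a hydroxyl group added, and I3P an indole ring. Both pairs with PP were tested at the same dose and time, as contrasts between the compounds in the fit of all 20 arrays, with adjustment over all genes and then over the 2 pairs. Over all genes 102 differed between I3P and PP (0.904%) and 65 after the second adjustment (0.576%), 49 of them higher with I3P (0.434%). I3P exceeded PP in 6 of the 12 AHR target genes. The log2 differences were 1.10 for TIPARP (95% interval 0.91 to 1.28, adjusted p = 4.29e-06 by limma), 1.11 for SERPINB2 (0.86 to 1.35), 0.84 for CYP1B1 (0.66 to 1.02) and 0.84 for STC2 (0.67 to 1.01). AHRR differed by 0.60 (0.43 to 0.78) and EREG by 0.45 (0.26 to 0.63, adjusted p = 0.0373 by limma). NQO1, ALDH3A1, CYP1A2, ABCG2, NFE2L2 and SLC7A5 did not pass (adjusted p = 0.446 to 0.987 by limma). The list was chosen with earlier results of these data known. Counts over it, here and for HPP, are therefore a description and no independent support. Without the block, where 10 genes differed before the second adjustment (0.0886%), TIPARP, CYP1B1 and STC2 passed, with adjusted p = 0.0227, 0.0259 and 0.0375 by limma.

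HPP exceeded PP in 2 of the 12 genes, out of 3 higher in all (0.0266%), which were TIPARP, SERPINB2 and SLC16A6. TIPARP differed by 0.63 (0.45 to 0.81, adjusted p = 0.0131 by limma) and SERPINB2 by 0.74 (0.49 to 0.98, adjusted p = 0.0256). SLC16A6, a monocarboxylate transporter family member, differed by 0.61 (0.41 to 0.80, adjusted p = 0.0256). The other members did not pass, with 0.45 for STC2 (0.28 to 0.62), 0.42 for CYP1B1 (0.24 to 0.60) and 0.31 for AHRR (0.13 to 0.48). For NQO1 the difference was 0.22 (0.07 to 0.37) and for CYP1A2 -0.13 (-0.43 to 0.17). The HPP count over the list was 0 without the block, with a random block, without any one of replicate numbers 1 to 4, and without PP replicate 1 or 5. It was 1 without replicate number 5, PP replicate 2 or 4, or DMSO replicate 2. It was 3 with only genes above the 25th percentile or the median of level, and 4 with a trended, robust variance model.

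The 6 genes with the largest I3P differences among those called with I3P are given side by side with PP, each against the same DMSO arrays. SLC16A6 was at 1.56 with I3P, 0.65 with HPP and 0.04 with PP (-0.15 to 0.24). THBS1, the matrix glycoprotein thrombospondin, was at 1.19, 0.475 and -0.02 (-0.22 to 0.18). SECTM1, a secreted and transmembrane protein, was at 0.94, 0.29 and -0.09 (-0.32 to 0.14). RGS4, which shortens G protein signals, was at -0.93 with I3P, -0.355 with HPP and -0.13 with PP (-0.39 to 0.13). TIPARP was at 1.03, 0.57 and -0.07, and SERPINB2 at 1.26, 0.89 and 0.16. These genes were picked by their I3P values, so the contrast between the columns is a description.

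Enzymes and carriers that handle phenylpyruvate and its relatives were close to DMSO, with pyruvate carboxylase the member with the smallest p. MIF and DDT, the tautomerases of keto acids, were among the tightly bounded genes. MIF read 11.75, 11.70, 11.52, 11.78 and 12.07 with PP and 11.73, 11.94, 11.46, 11.78 and 11.88 with DMSO, a difference of 0.006 (-0.13 to 0.14). DDT was at -0.02 (-0.14 to 0.10), and MIF's receptor chain CD74 at -0.03 (-0.14 to 0.09). Of 8 measured genes of phenylalanine and tyrosine breakdown and tetrahydrobiopterin, 0 passed and all 8 lay within 0.32. Among them QDPR, which regenerates tetrahydrobiopterin, was at -0.05 (-0.21 to 0.11) and PTS, an enzyme of its synthesis, at -0.05 (-0.19 to 0.09). Of 11 aminotransferases 0 passed and 10 lay within 0.32, with GPT2 at 0.14 (-0.01 to 0.29) and KYAT1 at -0.14 (-0.34 to 0.06). KYAT3, like KYAT1 a transaminase of aromatic amino acids, was at -0.19 (-0.54 to 0.17).

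PC, the mitochondrial enzyme that carboxylates pyruvate to oxaloacetate, read 9.07, 9.13, 9.28, 9.02 and 8.98 with PP. Its DMSO arrays read 9.22, 9.24, 9.58, 9.31 and 9.34. Every PP array lay below its DMSO partner, by 0.10 to 0.36, and the groups overlap only through PP replicate 3. The difference of -0.24 (SE 0.061, 95% interval -0.37 to -0.11) had an unadjusted p of 0.00108 and did not pass (adjusted p = 0.9996 by limma). It was the one member with an unadjusted p under 0.05 among 19 measured genes of pyruvate handling, whose median was -0.009. The carrier subunits MPC1 and MPC2, which bring pyruvate into mitochondria, were at 0.07 (-0.07 to 0.22) and 0.05 (-0.10 to 0.19). PDK2, a kinase that switches off pyruvate dehydrogenase, was at 0.12 (-0.09 to 0.34).

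Carriers of monocarboxylates and of neutral amino acids gave 0 calls among 8 and 11 measured genes. SLC16A1, the proton-coupled lactate and pyruvate carrier, was higher in 5 of 5 pairs at 0.12 (-0.03 to 0.27). SLC16A4 was at 0.35 with a wide interval (-0.08 to 0.775), and it was the 1 member of its list not placed within 1.5-fold. SLC43A2, a carrier of large neutral amino acids, was at 0.20 (-0.01 to 0.42). SLC38A1, a glutamine carrier, was at 0.09 (-0.01 to 0.19). In the pentose phosphate pathway 0 of 7 genes passed and all 7 lay within 0.32, with PGD at 0.08 (-0.04 to 0.19) and TKT at 0.07 (-0.04 to 0.18).

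**Figure D4:**
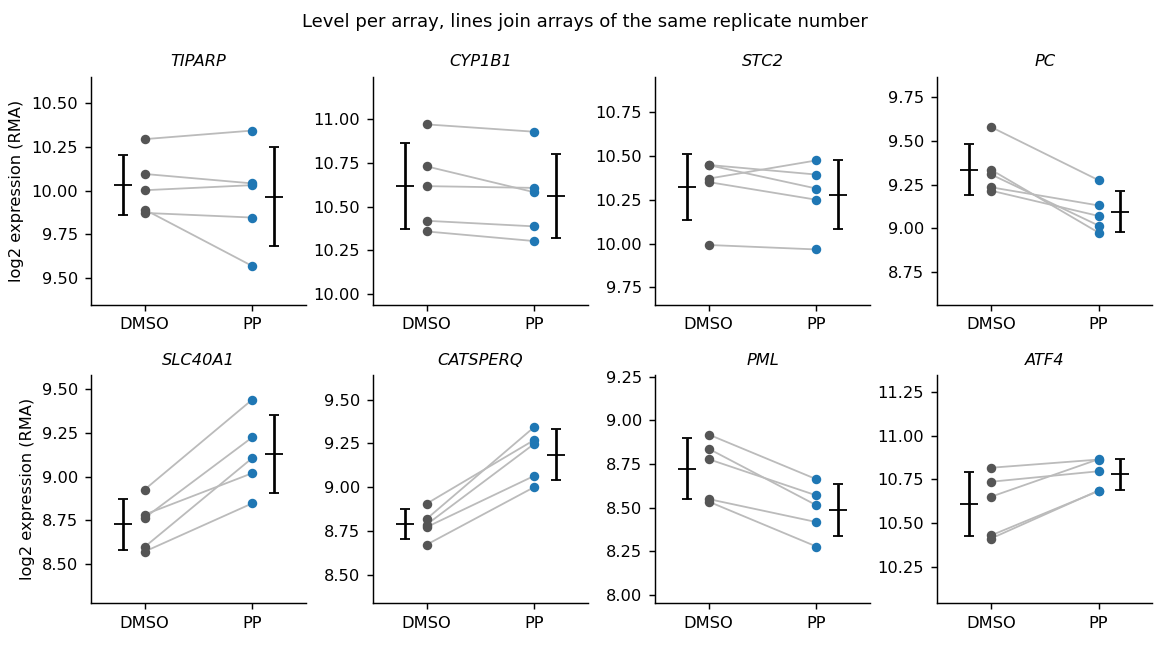
log2 RMA level (vertical axis) of 8 genes in the 5 DMSO arrays (grey) and the 5 PP arrays (blue); lines join arrays of the same replicate number, and black bars beside the points give mean and SD (n = 5). The groups overlap for the AHR targets TIPARP, CYP1B1 and STC2, while PC and PML are lower and SLC40A1, CATSPERQ and ATF4 higher with PP in all 5 pairs without passing the test.

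The trends among single genes were small, and none passed. The 10 genes with the smallest p on each side had adjusted p = 0.9996 by limma. On the higher side SLC40A1, the iron exporter ferroportin, read 8.85, 9.11, 9.02, 9.44 and 9.23 with PP and 8.57, 8.60, 8.78, 8.93 and 8.76 with DMSO. PP was the higher array in all 5 pairs, by 0.40 on average (SE 0.089, 0.21 to 0.59), although PP replicate 1 lies within the DMSO range. CATSPERQ, named for a subunit of the sperm calcium channel, read 9.34, 9.06, 9.27, 9.0 and 9.25 with PP and 8.82, 8.77, 8.905, 8.67 and 8.79 with DMSO. Its groups did not overlap, and the difference was 0.395 (0.20 to 0.59).

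The tetratricopeptide repeat gene TTC39B was at 0.28 (0.14 to 0.42) against DMSO, where I3P gave 0.33 and HPP 0.295 against the same arrays. With I3P this gene passed (adjusted p = 0.0247 by limma), and with HPP it did not. NCAPH2, a subunit of the condensin that compacts chromosomes, was at 0.23 (0.11 to 0.34). ZAP70, a tyrosine kinase best known from T cells, was at 0.22 (0.10 to 0.33). The PP arrays of these genes lay above all DMSO arrays. Further down were C16orf78 at 0.28, the kinase MAPK15 at 0.27, the mitochondrial carbonic anhydrase CA5B at 0.32, the ciliary gene CFAP61 at 0.23 and the long noncoding RNA MIR503HG at 0.44. The largest estimates, which also did not pass, included CNTNAP2, a neuronal adhesion protein, at 0.57 (0.22 to 0.92). TMEM176A, a membrane protein, was at 0.59 (0.15 to 1.02) and NME8 at 0.55 (0.095 to 1.01). Some of these genes also lay higher with I3P and HPP against the same DMSO arrays, and others did not. I3P and HPP gave 0.34 and 0.25 for CNTNAP2, 0.31 and 0.27 for TMEM176A, and 0.23 and 0.15 for NCAPH2. They gave 0.31 and 0.08 for CATSPERQ, -0.01 and -0.004 for C16orf78, and -0.03 and -0.03 for MAPK15.

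On the lower side PML, which builds the nuclear bodies of that name, had the smallest p of all genes (0.000226). It read 8.51, 8.66, 8.28, 8.42 and 8.57 with PP and 8.84, 8.92, 8.53, 8.55 and 8.78 with DMSO. Each pair was lower, by 0.23 on average (-0.34 to -0.13), and the groups overlap. The kinase gene TESK2 was at -0.44 (-0.66 to -0.22), MEX3D, an RNA-binding protein, at -0.32 (-0.49 to -0.15) and the transcription factor gene CSRNP2 at -0.30 (-0.48 to -0.12). The kinase RPS6KA4, which phosphorylates histones and transcription factors, was at -0.29 (-0.44 to -0.13), and TXLNG, a taxilin, at -0.27 (-0.41 to -0.12). These last 2 had all PP arrays below all DMSO arrays. JMY, an actin nucleator, was at -0.26, the mitochondrial arginase ARG2 at -0.22 and the coregulator TCF20 at -0.22. The other largest negative estimates were CHRDL2, a relative of the BMP antagonist chordin, at -0.50 (-0.85 to -0.16), RNF144B at -0.40 and NRXN3 at -0.38. Here too some genes lay lower with I3P and HPP against the same DMSO arrays, and others did not. I3P and HPP gave -0.30 and -0.27 for TESK2, -0.40 and -0.48 for CHRDL2, and -0.43 and -0.17 for NRXN3. They gave -0.10 and -0.07 for PML, 0.07 and -0.14 for JMY, and -0.007 and 0.02 for TCF20.

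Groups of 5 arrays that did not overlap were found for 24 genes (0.213%), 16 higher (0.142%) and 8 lower (0.0709%). All 5 pairs were higher for 319 genes (2.83%) and lower for 356 (3.16%). Together 5.98% of genes had all 5 pairs in 1 direction, close to the share of 0.0625 that chance gives with 5 pairs. Such a run of pairs is thus no mark of a PP effect in a single gene. The share without overlap that chance gives was not worked out. Estimates beyond 0.32 in log2 were held by 95 genes on the higher side and 19 on the lower. Without replicate 5 those counts were 67 and 38, and without replicate 1 they were 145 and 29. Among genes with an unadjusted p under 0.05 the median difference was 0.25 on the higher side and -0.19 on the lower. The median level of these genes was 8.88 and 8.97, below the 9.25 of all genes.

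Across gene groups, no list held a called gene, and the median of each list with 5 or more members lay between -0.05 and 0.07. In the list of NF-kB and cytokine genes 14 of 15 members were above DMSO and 0 passed, with a median of 0.07 where all genes had -0.005. Its pair medians ran from -0.01 to 0.14, the highest in replicate 3, and the mean level of the list overlapped between PP (8.99 to 9.81) and DMSO (8.79 to 9.75). IL6 was at 0.23 (-0.06 to 0.51) and PTGS2, the inducible cyclooxygenase, at 0.18 (-0.04 to 0.41). Replicate 3 had the widest gap for both, and without it they were at 0.10 and 0.07. The medians of I3P and HPP on this list, against the same DMSO arrays, were 0.20 and 0.07. Every member of this list lay within 1.5-fold with PP, but only 10 lay within 0.32 (66.7%, against 84.3% of all genes).

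In the list of the ATF4 and amino acid response 11 of 17 members were above DMSO, 0 passed, the median was 0.04, and the pair medians were above 0 in 5 of 5 pairs. ATF4, the transcription factor translated when amino acids run short, read 10.80, 10.86, 10.68, 10.69 and 10.87 with PP. With DMSO it read 10.74, 10.82, 10.43, 10.41 and 10.65, a difference of 0.17 (0.07 to 0.27) with all 5 pairs higher and overlapping groups (adjusted p = 0.9996 by limma). Against the same DMSO arrays ATF4 was at 0.13 with I3P and 0.14 with HPP. The medians of the list were 0.03 with I3P and 0.06 with HPP. The ATF4-induced pseudokinase gene TRIB3 was at 0.17 (-0.05 to 0.39). NRF2 target genes had 13 of 16 members above DMSO with a median of 0.01, 0 calls and 15 members within 0.32. The cystine carrier SLC7A11, shared by both lists, was at -0.16 (-0.39 to 0.06).

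Subunits of the respiratory chain and ATP synthase had 45 of 69 members above DMSO (65.2%, against 47.3% of all genes) and a median of 0.02. The pair medians ran from -0.03 to 0.07, above 0 in 3 of 5 pairs. Every member lay within 1.5-fold and 68 within 0.32, and 0 passed. NDUFB5, of complex I, was the exception in size at 0.34 (0.11 to 0.57). It read 9.93, 10.00, 9.96, 9.76 and 9.41 with PP and 9.40, 9.83, 9.59, 9.67 and 8.87 with DMSO, higher in each pair with overlapping groups. ATP5ME was at 0.12 (0.007 to 0.23). Cytosolic ribosomal proteins, with 31 of 47 members above DMSO (66.0%), and mitochondrial ones, with 40 of 71, had medians of 0.01 each. Proteasome subunits had 19 of 36 and a median of 0.009, and the tricarboxylic acid cycle 8 of 11 and 0.02.

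Matrix genes had 10 of 21 members above DMSO and a median of -0.004. COL3A1 was at 0.36 (0.08 to 0.63), with PP arrays of 9.58, 9.07, 9.23, 9.55 and 9.44 and DMSO arrays of 9.03, 8.91, 9.01, 9.24 and 8.90. COL4A1 was at 0.19 (0.04 to 0.35). Both collagens were higher in 5 of 5 pairs, neither passed, and the groups overlap. Among immediate early and ERK response genes, with 10 of 20 above DMSO, IER3 was at 0.20 (0.04 to 0.37) and the ERK feedback inhibitor SPRY4 at -0.13 (-0.25 to -0.01).

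The remaining lists also held 0 calls. All 31 cell cycle genes lay within 0.32, with a median of -0.002 and the ribonucleotide reductase subunit RRM2 at 0.14 (-0.003 to 0.29). Of 23 hypoxia and glycolysis genes 10 were above DMSO, and the aldolase ALDOC was at -0.18 (-0.415 to 0.05). Cholesterol synthesis had 7 of 16 above DMSO, with DHCR7 at 0.11 (-0.06 to 0.28) and SQLE at 0.10 (-0.04 to 0.24). The p53 targets had 10 of 15, with BAX at -0.135 (-0.28 to 0.007). Interferon response genes had 6 of 16, with B2M at -0.07 (-0.19 to 0.04), and chaperones of the endoplasmic reticulum had 6 of 12, with CRELD2 at -0.175 (-0.45 to 0.10).

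**Figure D5:**
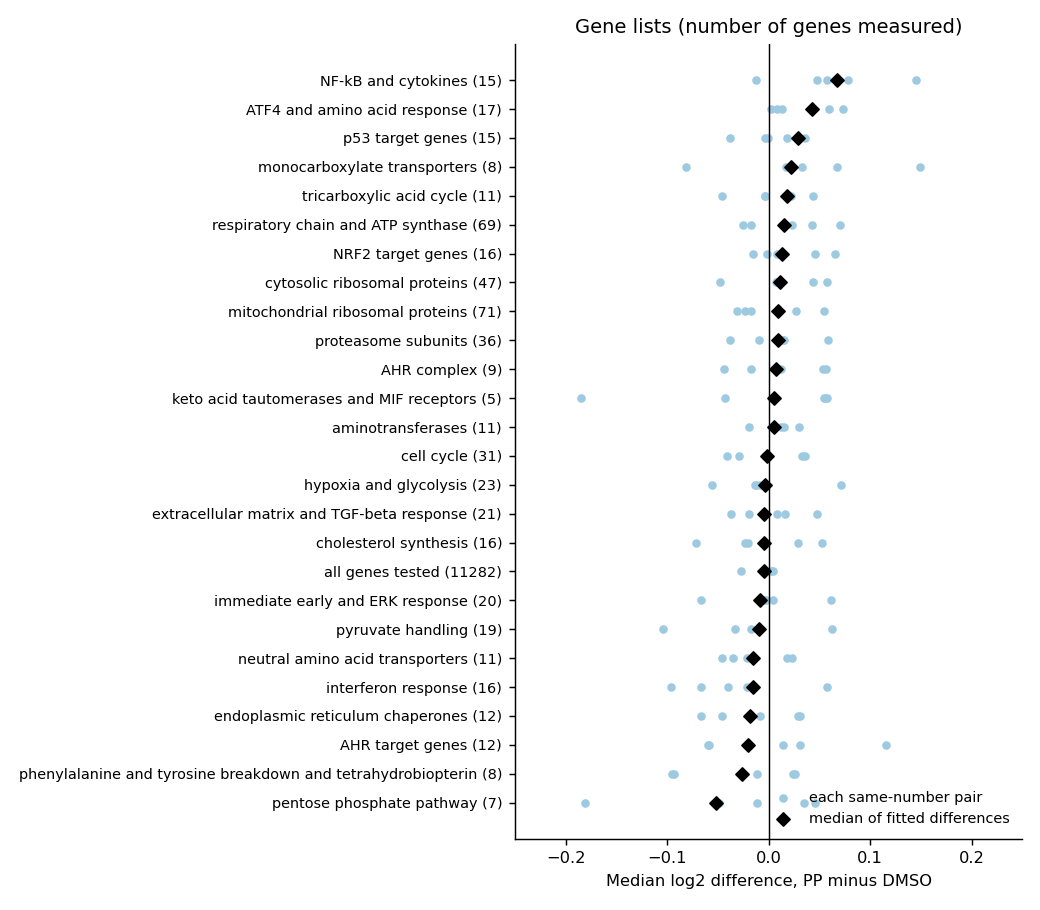
Median log2 difference PP minus DMSO (horizontal axis) of each gene list with at least 5 measured members: black diamonds give the median of the fitted differences and blue points the median in each of the 5 same-number pairs. Medians lie between -0.05 and 0.07, and pair values lie on both sides of 0 for most lists.

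The labelled cell type was checked with marker genes. Of 8 glioma and astrocyte markers 4 were measured, VIM, NES, GFAP and CD44, and their mean level was 10.7 to 10.8 in both groups. That mean does not hold for each member, since NES read 9.03 or less in every PP and DMSO array. Of these 3 were above DMSO and 1 below, with a median of 0.03, and GFAP, the astrocyte filament protein, was at 0.19 (-0.16 to 0.54). NES, an intermediate filament of neural precursors, was the lower one, at -0.28 (-0.55 to -0.008), with DMSO arrays of 8.46, 8.67, 9.03, 7.98 and 8.29 and PP arrays of 8.16, 8.06, 8.19, 8.17 and 8.46. Of the markers of other cells, 3 of 8 for microglia and blood, 2 of 5 epithelial, 4 of 5 neuronal, 1 of 3 endothelial and 0 of 4 oligodendrocyte genes were measured, and 0 passed. The mean level of the microglia and blood markers was 8.15 to 8.40 with PP and 7.90 to 8.75 with DMSO. For the neuronal markers it was 9.07 to 9.51 with PP and 9.01 to 9.42 with DMSO, mostly above NES. For the epithelial markers it was 8.60 to 8.96 with PP and 8.39 to 8.84 with DMSO. Of the neuronal markers 1 was above DMSO and 3 below, with a median of -0.03, where the splicing factor RBFOX3 was at 0.20 (0.05 to 0.34) and the synaptic vesicle protein SYT1 at -0.15 (-0.42 to 0.12). Both epithelial markers were above DMSO, the adhesion proteins EPCAM at 0.23 (0.04 to 0.42) and CDH1 at 0.02 (-0.17 to 0.21).

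PP replicate 5 was the array with the widest spread left after the fit. After the group and the replicate number were fitted, its residual SD over genes was 0.156, where the other 19 arrays had 0.107 to 0.144. DMSO replicate 5, at 0.131, had the largest value of the DMSO arrays. Between PP and DMSO of replicate 5, 74 genes differed by over 2-fold, against 13 to 23 in the other pairs. That count cannot be assigned to either array of the pair. The part of PP replicate 5 in the gene values was not tested, but without this array 0 genes passed, 11110 lay within 1.5-fold and 9341 within 0.32. Without all arrays of number 5 these counts were 0, 11107 and 9291.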

How the data were processed

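Values were the log2 expression values of the deposited series matrix, made by the authors with oligo and RMA per the submitters' processing notes (versions not given in the sources used here). All 12770 probe sets had means of 7.943 or more, so genes below that level are not analysed here. Of them 11316 had 1 gene symbol (833 updated through RefSeq, GRCh38.p14), 629 several and 825 none; the brightest probe set per symbol was kept, giving 11282 genes. Array medians lay between 9.23 and 9.279, no 2 arrays were identical, and the number of arrays limits the precision. The labels call replicates biological without saying what separates them, so p-values measure the spread between these samples, which may be technical.

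Limma 3.58.1 in R 4.3.3 fitted the 4 groups of 5 arrays with the replicate number as block, leaving 12 residual degrees of freedom. The same fit gave the bound tests and 95% intervals. Figures used matplotlib 3.10.9. The code was tested on simulated data. Arrays of the same number deviated together from their group means (PP with DMSO 0.331 to 0.714, all 30 same-number pairs above 0.1, PP with DMSO of other numbers -0.355 to 0.315), so the numbers were taken to pair the arrays. Errors from the blocked fit do not include differences between replicate numbers. A paired permutation of 5 pairs cannot give p below 0.0625.

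Members, lists, tests and alternatives were chosen with earlier results of these data known. Named genes were, since fewer than 10 passed, the 10 of smallest p and 5 of largest difference in each direction, the 5 widest intervals, the AHR targets, AHR, ARNT, MIF and DDT, the 2 smallest p and largest difference per list, and the 6 largest I3P differences among genes called there. MPC1 and MPC2 were added after their values were seen. Alternatives were the block, arrays fitted, normalization, level filters, probe sets, variance model and left-out arrays.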

Additional observations from a re-analysis of the deposited data

Results flagged for a closer look

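Dixon's test was run on each group of 5 arrays for the 28 genes read array by array, and chance flags about 1 in 20 such groups. STC2 in DMSO replicate 3 read 9.99, where the other DMSO arrays read 10.35 to 10.45, and the PP array of that number was also the lowest of its group. EREG in PP replicate 5 read 11.36, against 11.85 to 12.03 in the other PP arrays. NQO1 in PP replicate 5 read 10.95, against 11.24 to 11.34 in the others. The DMSO array of number 5 was the lowest of its group for EREG (11.52) and NQO1 (11.04) too.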

How the results depend on the processing

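The count of genes called was 0 under every alternative run, including the no replicate block fit, and the smallest adjusted p by limma over the 15 fits that left out a number or an array ran from 0.609 to 1. With array weights it was 0.497. Leaving out arrays moved the genes within 1.5-fold from 11121 to between 10967 and 11110, those within 0.32 in log2 from 9510 to between 8518 and 9341, the AHR target median to between -0.05 and 0.03, and the respiratory chain median to between -0.002 and 0.03. With only the genes above the median level, 5616 of 5641 (99.6%) lay within 1.5-fold and 5375 (95.3%) within 0.32 in log2. The shares over all genes were 98.6% and 84.3%. With no replicate block 10854 and 7451 did. The AHR target calls of I3P and HPP against PP, 8 in all, were 3 with no replicate block, 5 with a random replicate block 4 to 8 when arrays were left out, 9 with genes above the 25th percentile of level and 10 with a trended, robust variance model; the cause was not tested. The fit of the 10 PP and DMSO arrays alone cannot give that count, and called 0 genes with 11165 within 1.5-fold and 9806 within 0.32 in log2. Of 114 named genes, 0 passed under any alternative. The sign of the difference changed for 11 of them without replicate number 5, the most of any alternative, and for 8 without PP replicate 5. Counts of estimates beyond 0.32 in log2 without replicate 1 or 5 were added after the data were seen. The median standard error was larger for genes of low level.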

Other observations

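Of the 24 genes whose PP and DMSO arrays did not overlap, 4 are given here, picked after their values were seen. MAPT, the microtubule protein tau, was at a mean of 10.26 with PP and 9.92 with DMSO (log2, 5 arrays each), a difference of 0.34, higher in 5 of 5 pairs. PDE1C, a calmodulin-dependent phosphodiesterase, was at 0.36 and the lipid regulator TM6SF2 at 0.44. LIPA, the lysosomal acid lipase, was lower by 0.25 in log2, at 9.95 against 10.19. All 4 had an adjusted p of 0.9996 by limma, so none passed.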
